A study of Mus musculus with 12 samples.

Results

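Mouse macrophages were followed here for 10 nuclear genes that run the making of mitochondria, namely the 3 coactivators of the PGC-1 family (Ppargc1a, Ppargc1b and Pprc1), the nuclear respiratory factors Nrf1 and Gabpa, the mitochondrial transcription proteins Tfam, Tfb1m and Tfb2m, and the replication proteins Polg2 and Peo1. They were taken by symbol from the authors' deposited comparison tables, where all 10 had a row at each time, out of 24351 genes listed in any table. Peo1 is the older symbol of Twnk, which encodes the helicase Twinkle. The 12 libraries fell into 4 groups of 3: cells exposed to monophosphoryl lipid A (MPLA) for 4 h, cells exposed for 24 h, cells harvested 3 d after priming with MPLA had ended, and controls without MPLA. Every group was made of bone marrow-derived macrophages of C57BL/6 males aged 8 to 16 weeks, grown over 7 days in 10% serum with the growth factor M-CSF at 10 ng/mL, which was kept in the medium afterwards. MPLA is a detoxified part of bacterial lipopolysaccharide and an agonist of Toll-like receptor 4. The labels give neither the length of priming of the 3 d group nor whether replicate libraries stem from different animals or dishes, so the p-values cover the variation among these libraries, which may be technical only. Nor do they say when the controls, shared by all comparisons, were harvested. An effect of MPLA therefore cannot be told apart from a difference in time in culture, at 3 d or at the earlier times.

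The PGC-1 proteins do not bind DNA themselves but are recruited by nuclear receptors and by the respiratory factors NRF-1 and GABP, whose target genes encode subunits of the respiratory chain and the proteins that copy, pack and read mitochondrial DNA. TFAM packs the mitochondrial genome and helps the polymerase POLRMT, with TFB2M, to start transcription, TFB1M methylates the small ribosomal RNA of the mitochondrion, and Twinkle unwinds DNA for the polymerase whose accessory subunit is POLG2. In macrophages PGC-1beta is known for its link to oxidative metabolism and alternative activation, and Nrf1 is not the antioxidant regulator often called NRF2, which is Nfe2l2.

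The authors' deposited tables give 1 set of statistics per gene and no value per library, so each value below is a log2 change of MPLA-exposed cells over control cells from DESeq2, with its Benjamini-Hochberg adjusted p. A gene was called at an adjusted p under 0.05 over all tested genes of its table. The deposited log2 values ran the other way, control over MPLA, and were turned. The tables used here give no error, and the approximate standard error (SE) and 95% interval printed here were computed back from the unadjusted p on the assumption of a Wald test. Depth per library is unknown. A depth of the MPLA libraries relative to the controls was inferred from the median gap between edgeR's log2 change and the log2 ratio before scaling. It was 0.859 for 4 h, 0.934 for 24 h and 2.32 for 3 d, and it rests on edgeR's scaling. In the authors' deposited tables edgeR's scaling lay below that of DESeq2, with a median log2 change over tested genes of -0.97 by edgeR against -0.04 by DESeq2 at 4 h, of -0.46 against -0.05 at 24 h, and of -0.15 against -0.02 at 3 d. For the members, a direction that this shift alone turns is named beside the gene. Of 8 macrophage markers all had a row, and in the authors' deposited tables DESeq2 called 6 higher and 1 lower at 4 h, 4 and 4 at 24 h, and 5 and 3 at 3 d. Of 34 markers of the other cell types that marrow can give, in 7 lists, 22 had a row at each time, and in the authors' deposited tables DESeq2 called 5 higher and 3 lower at 4 h, 3 and 6 at 24 h, and 3 and 2 at 3 d. By edgeR 3 macrophage markers were called higher and 5 lower at 4 h, again 3 and 5 at 24 h, and 4 and 3 at 3 d. For the other markers edgeR gave 4 and 6, 3 and 10, and 4 and 3. DESeq2 called 31.8% of all tested genes higher and 31.0% lower at 4 h. Its shares were 32.4% and 32.2% at 24 h, and 29.5% and 25.8% at 3 d. The edgeR shares of all genes were 13.5% and 50.1%, 16.2% and 41.8%, and 15.5% and 27.7%. The part of other cell types in the results below was not tested, and in bulk RNA fewer cells of a type and less RNA per cell cannot be told apart.

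In the authors' deposited tables Ppargc1b and Pprc1 were called higher by DESeq2 at all 3 times, while Tfb2m and Peo1 were called lower at all 3 times. Nrf1, Gabpa and Tfam were called higher by DESeq2 and lower by edgeR in the authors' deposited 4 h table, and Gabpa was called lower by both at 24 h and 3 d. At 4 h the authors' deposited table had 5 members called higher and 2 called lower by DESeq2, against 62.9% of 17523 tested genes called in either direction, 31.8% higher and 31.0% lower. At 24 h the authors' deposited table had 3 members higher and 4 lower, against 64.6% of 16442 tested genes called, 32.4% higher and 32.2% lower. At 3 d the authors' deposited table had 2 members higher and 5 lower, against 55.2% of 15111 tested genes called, 29.5% higher and 25.8% lower. With an adjusted p in 10 members at 4 h and in 9 at 24 h and at 3 d, 7 were called at each time. With edgeR, which gave every listed gene an adjusted p, the authors' deposited 4 h table had 1 member higher and 8 lower, against 63.6% of 21893 genes called, 13.5% higher and 50.1% lower. The edgeR counts in the authors' deposited tables were 2 higher and 7 lower at 24 h, against 58.0% of 21923 genes called (16.2% higher, 41.8% lower), and again 2 and 7 at 3 d, against 43.3% of 23248 (15.5% higher, 27.7% lower). A further tool, baySeq, called none of the 5 decreases of 3 d (0 of 10 members lower) in the authors' deposited table, where it called 4.84% of all genes lower, while it called the increases of Ppargc1b and Pprc1 at all 3 times. Its deposited value is headed as an adjusted likelihood, was read here as an error rate, and has no direction. The direction of every baySeq call given here was therefore taken from DESeq2, and is no separate evidence of direction. The plot of each member by time shows DESeq2 and edgeR side by side.

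**Figure D1:**
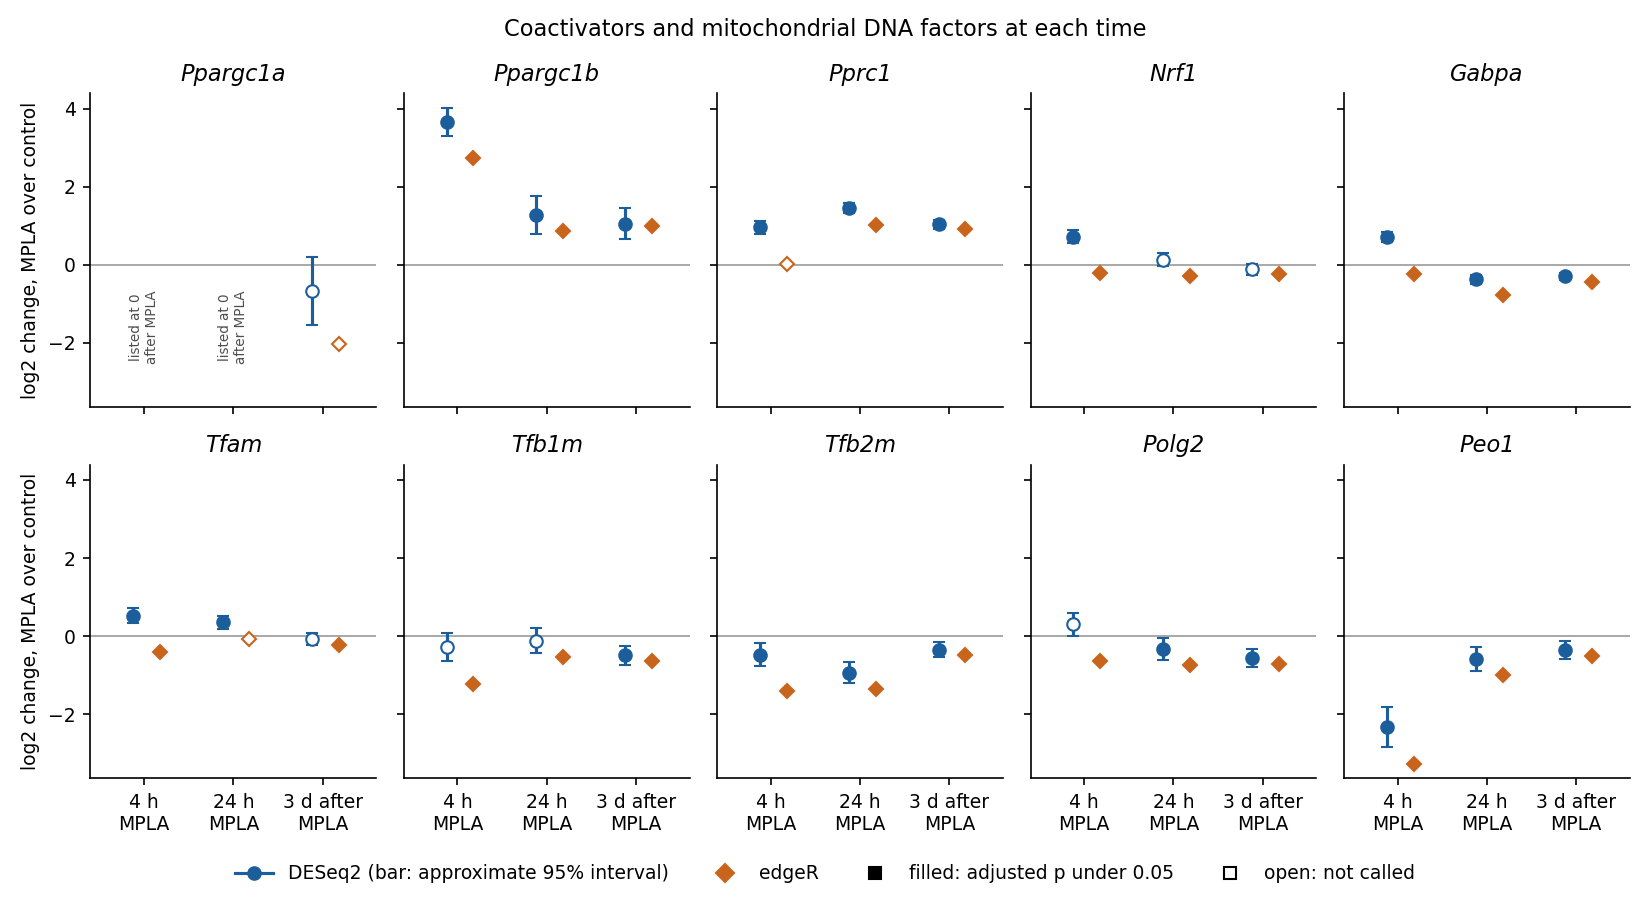
Log2 change of each member in MPLA-exposed over control macrophages (vertical axis) at 4 h, 24 h and 3 d after MPLA, from the authors' deposited tables: circles are DESeq2 with an approximate 95% interval, diamonds are edgeR, and filled symbols have an adjusted p under 0.05. Ppargc1b and Pprc1 lie above 0 by DESeq2 at all 3 times, Peo1 and Tfb2m lie below 0, and Ppargc1a has no fold at 4 h and 24 h because it was listed at 0 after MPLA.

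Among the coactivators, Ppargc1b (chr18:61298136-61400431, minus strand; all member positions are mm10, from GENCODE release M21), which encodes PGC-1beta, had the highest change of any member at 4 h. It stood at 3.66 (SE 0.186) in the authors' deposited table, a 12.6-fold increase with a DESeq2 adjusted p of 4.61e-85. That change ranked 780 from the highest of 17523 tested genes in the authors' deposited 4 h table. At 24 h the authors' deposited value was 1.27 (SE 0.250), 2.41-fold (DESeq2 adjusted p 8.82e-07), and at 3 d it was 1.06 (SE 0.206), 2.08-fold (1.03e-06). The approximate 95% interval of the 4 h change was 3.29 to 4.02, wholly above the values of the later times, though a difference between times was not tested because the tables share their controls and were scaled apart. The authors' deposited edgeR changes of Ppargc1b were 2.73, 0.87 and 0.99 at 4 h, 24 h and 3 d, and it was called higher each time by DESeq2, edgeR and baySeq alike.

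Pprc1 (chr19:46044886-46072915, plus strand) encodes PRC, the family member known as an early response gene to serum. Its change in the authors' deposited tables was 0.96 (SE 0.0828) at 4 h, 1.95-fold with a DESeq2 adjusted p of 1.17e-30. It was 1.44 (SE 0.0655) in the authors' deposited 24 h table, 2.72-fold with a DESeq2 adjusted p of 1.31e-106, and 1.04 (SE 0.0598) in the 3 d table, 2.05-fold with an adjusted p of 2.56e-66. The rise at 4 h was not called by edgeR, whose change in the authors' deposited table was 0.03 with an adjusted p of 0.711, a value close to 0 where the median of all tested genes was -0.97. At 24 h and 3 d edgeR in the authors' deposited tables also called Pprc1 higher, at 1.03 and 0.91. Its highest value was thus that of 24 h, while that of Ppargc1b was at 4 h, with no test between times.

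Ppargc1a (chr5:51454250-51567726, minus strand) encodes PGC-1alpha, the founding member of the family, which drives mitochondrial genes in muscle and brown fat. The authors' deposited tables list it at 0 after MPLA at 4 h and 24 h, with reads in the controls, so no fold is given. DESeq2 did not call it in the authors' deposited 4 h table, with an adjusted p of 0.194, and gave it no adjusted p at 24 h or 3 d. Unlike DESeq2, edgeR in the authors' deposited tables called it lower at 4 h and 24 h, with adjusted p of 0.0108 and 0.00944, and not at 3 d, with 0.0553, while baySeq called it lower at 24 h only among the 3 times. At 3 d the authors' deposited DESeq2 change was -0.67, with an approximate 95% interval of -1.55 to 0.21 and an unadjusted p of 0.137. By edgeR the change was -2.04, outside that interval, and the log2 ratio before scaling was -1. The medians of all tested genes at 3 d, -0.15 by edgeR and -0.02 by DESeq2, lay much closer together than these changes. The reason for the gap was not tested, so the size of the 3 d change is uncertain. Relative to the controls, the MPLA libraries were deeper at 3 d (2.32) than at 4 h (0.859) and 24 h (0.934), as inferred from edgeR's scaling. The part of depth in its being listed at 0 earlier and above 0 at 3 d was not tested.

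The plot of the members among all tested genes places each change within its table. At 4 h the authors' deposited DESeq2 changes of tested genes had quartiles of -1.01 and 0.89, at 24 h of -0.81 and 0.57, and at 3 d of -0.32 and 0.29. Pprc1 ranked 921 from the highest of 15111 tested genes at 3 d in the authors' deposited table, next to Ppargc1b at 896. At 4 h, Peo1 ranked 1518 from the lowest of 17523 tested genes in the authors' deposited table.

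**Figure D2:**
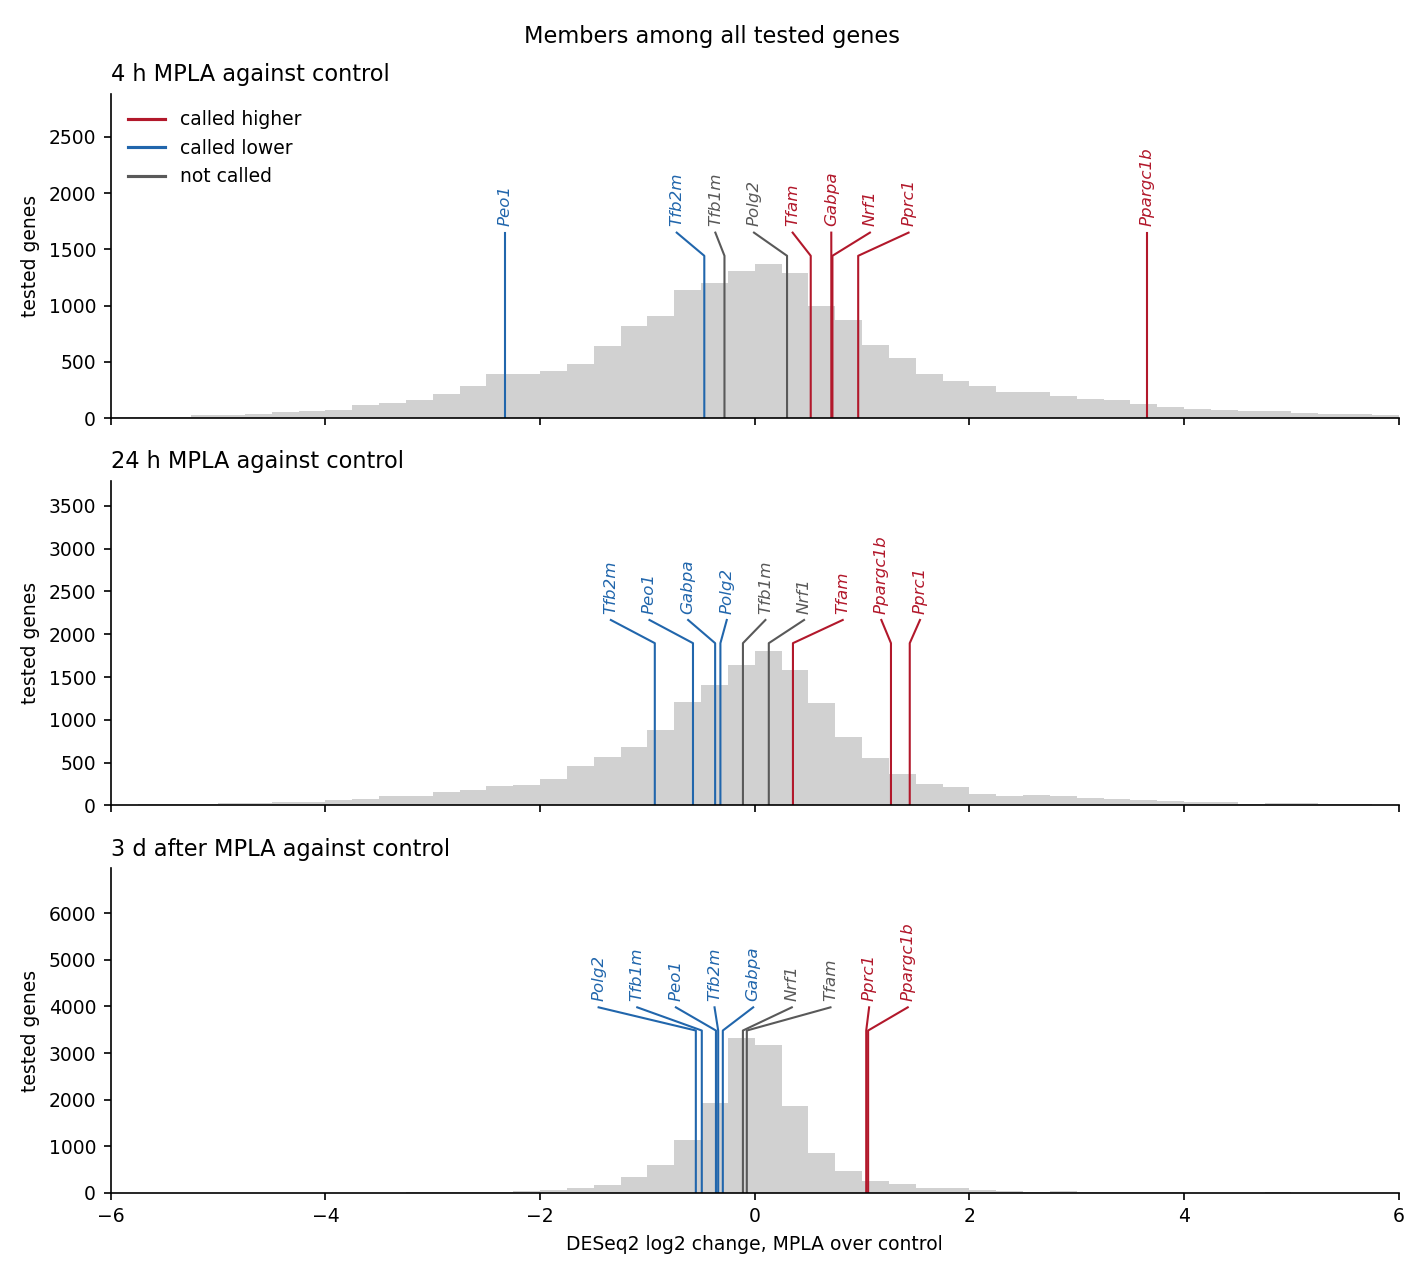
Number of tested genes (vertical axis) by DESeq2 log2 change of MPLA-exposed over control macrophages (horizontal axis, limited to 6 on either side, with 239, 185 and 11 tested genes beyond it at 4 h, 24 h and 3 d), with each member marked at its change and coloured by its call. Ppargc1b stands far to the right at 4 h and Peo1 far to the left, the other members lie nearer the middle, and Ppargc1a is not drawn.

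Nrf1 (chr6:30047988-30153458, plus strand) encodes NRF-1, the factor that binds GC-rich palindromes in promoters of respiratory genes. The authors' deposited tables had it at 0.72 (SE 0.0878) at 4 h, with a DESeq2 adjusted p of 5.18e-16, but edgeR turned the direction, at -0.21 and called lower. At 24 h its change was 0.13 (SE 0.0848; DESeq2 adjusted p 0.168) and at 3 d it was -0.11 (SE 0.0724; 0.196) in the authors' deposited tables, neither of them called by DESeq2. With edgeR the changes in the authors' deposited tables were -0.28 at 24 h and -0.24 at 3 d, both called lower. The sign of the Nrf1 change thus differed between the tools at 4 h and 24 h.

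Gabpa (chr16:84834925-84863779, plus strand) encodes the DNA-binding subunit of GABP, a factor of the ETS family. Its change in the authors' deposited 4 h table was 0.71 (SE 0.0629) with a DESeq2 adjusted p of 3.60e-29, against -0.22 and a call of lower by edgeR. It was lower later, at -0.37 (SE 0.0567; DESeq2 adjusted p 2.18e-10) at 24 h and -0.30 (SE 0.0481; 2.77e-09) at 3 d in the authors' deposited tables, where edgeR agreed in direction, at -0.78 and -0.43. The partner subunits of Gabpa, which carry the activation domain and come from the genes Gabpb1 and Gabpb2, did not move alike. At 4 h Gabpb1 was higher at 1.74 (DESeq2 adjusted p 1.26e-111; edgeR 0.80) and Gabpb2 lower at -1.42 (4.70e-78; edgeR -2.36) in the authors' deposited table, and both tools called each in that direction. At 24 h Gabpb1 was 0.64 (DESeq2 adjusted p 1.39e-14) and Gabpb2 was -0.52 (1.31e-17) in the authors' deposited table, and at 3 d neither was called by DESeq2, at -0.04 and 0.05. These genes of the partner list were picked for their role beside Gabpa after their values were seen.

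Tfam (chr10:71225464-71238280, minus strand) rose early by DESeq2. Its change in the authors' deposited tables was 0.52 (SE 0.0973; DESeq2 adjusted p 1.96e-07) at 4 h and 0.36 (SE 0.0834; 4.14e-05) at 24 h, and it was not called at 3 d, at -0.07 (SE 0.0771; 0.441). In the authors' deposited tables edgeR gave -0.41, called lower, at 4 h and -0.06, not called with an adjusted p of 0.368, at 24 h. Relative to the median of all tested genes by edgeR, Tfam was 0.56 higher at 4 h and 0.41 higher at 24 h. By baySeq it was called at 4 h but not at 24 h, with an error rate of 0.228 in the authors' deposited table, so the 24 h rise was a call of DESeq2 alone.

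Tfb2m (chr1:179528055-179546267, minus strand) fell at all 3 times by both tools. Its change in the authors' deposited tables was -0.47 (SE 0.152; DESeq2 adjusted p 0.00356) at 4 h, -0.93 (SE 0.142; 1.51e-10) at 24 h and -0.34 (SE 0.100; 0.00165) at 3 d. The 24 h value corresponds to a level 1.91-fold lower after MPLA in the authors' deposited table. Changes by edgeR in the authors' deposited tables were -1.41, -1.35 and -0.47. Of the stretches of 50 bases along its transcripts 31.9% also occur in the gene model Gm1818, which makes its counts uncertain. Gm1818 itself was not called by either tool at any time in the authors' deposited tables, with DESeq2 changes of 0.25, -0.63 and 0.18.

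Tfb1m (chr17:3519256-3557781, minus strand), the paralog that acts on ribosomal RNA, was called by DESeq2 at 3 d only among the 3 times. Its change in the authors' deposited tables was -0.28 (SE 0.185; DESeq2 adjusted p 0.179) at 4 h, -0.11 (SE 0.166; 0.588) at 24 h and -0.49 (SE 0.129; 3.47e-04) at 3 d. By edgeR it was called lower at each time in the authors' deposited tables, at -1.22, -0.53 and -0.62. Tfam, Tfb1m and Tfb2m, which serve the same transcription and translation system, thus did not share a course by DESeq2.

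Peo1 (chr19:45005663-45012762, plus strand) had the largest decrease of the members with a fold. At 4 h it was -2.32 (SE 0.256) in the authors' deposited table, a level 5.00-fold lower after MPLA with a DESeq2 adjusted p of 4.38e-19. At 24 h it was -0.58 (SE 0.155; DESeq2 adjusted p 3.94e-04) and at 3 d -0.36 (SE 0.117; 0.00452) in the authors' deposited tables. By edgeR the authors' deposited changes were -3.27, -0.99 and -0.51, all called lower.

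Polg2 (chr11:106768253-106779537, minus strand) was not called at 4 h, at 0.30 (SE 0.145; DESeq2 adjusted p 0.0584) in the authors' deposited table, where edgeR gave -0.63 and called it lower. It was lower at 24 h, at -0.32 (SE 0.142; DESeq2 adjusted p 0.0383), and at 3 d, at -0.55 (SE 0.116; 7.52e-06) in the authors' deposited tables. The 24 h call was lost when p was adjusted over every gene with a p instead of the tested genes. Polg, the catalytic subunit that Polg2 serves, was lower at all 3 times in the authors' deposited tables, at -0.77 (DESeq2 adjusted p 3.32e-27), -0.41 (2.75e-12) and -0.27 (1.63e-06), with edgeR at -1.71, -0.83 and -0.40. It was picked beside Polg2 after its values were seen.

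The starts of the members were searched for motifs of the factors that act on this pathway. RefSeq windows of 300 bases (250 before and 50 after a start; GRCm38.p6) were used for 9 of the 10 members, 11 windows in all. The ETS motif CCGGAAG, the core bound by GABP, was found on either strand in 4 members, Gabpa, Tfam, Polg2 and Peo1, against 9.93% of 27025 genes. The NRF-1 palindrome, GCGC followed by AT and GCGC (1.07% of genes), its looser form with any base in place of A and of T (7.00%), which includes every match to the strict one, the E-box CACGTG (8.09%) and the cAMP response element TGACGTCA (2.03%) were found in no member window, which says only that these letters are not in these windows. The sites with the ETS motif are shown because they are what these 4 promoters share, with the motif in capitals on the strand of the gene (CTTCCGG is the motif read on the other strand) and 30 bases each. They lie at chr16:84835020-84835049 (plus) for Gabpa, chr10:71238073-71238102 (minus) for Tfam, chr11:106779548-106779577 (minus) for Polg2, and chr19:45006437-45006466 and chr19:45006481-45006510 (plus) for the second RefSeq start of Peo1.
Gabpa: gagggtaagtgCTTCCGGgtccctcagcta
Tfam: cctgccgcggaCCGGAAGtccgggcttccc
Polg2: cgggtgacgctCTTCCGGgggcgtggtcta
Peo1 first site: ctaaccggtgaCTTCCGGttccggggttgt
Peo1 nearer site: ggagagttttgCTTCCGGagtcaccgcgag
The motif begins 93 bases before the RefSeq start of Gabpa, 47 before that of Tfam, 29 before that of Polg2, and 110 and 66 before the second one of Peo1. RefSeq and GENCODE place these starts differently: the RefSeq start lies 199 bases inside the GENCODE gene for Gabpa, 236 for Tfam and 895 for Peo1, and at the same base for Polg2. Counted from the outermost GENCODE start, the motifs of Gabpa, Tfam and Peo1 therefore lie inside the gene, 106 bases in for Gabpa, 189 for Tfam, and 785 and 829 for Peo1. The members that hold it had unlike changes at 4 h by DESeq2 in the authors' deposited table, at 0.71 for Gabpa, 0.52 for Tfam, 0.30 (not called) for Polg2 and -2.32 for Peo1, while edgeR called all 4 lower, at -0.22, -0.41, -0.63 and -3.27. A match is a description of the sequence and no evidence of binding in these cells.

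**Figure D3:**
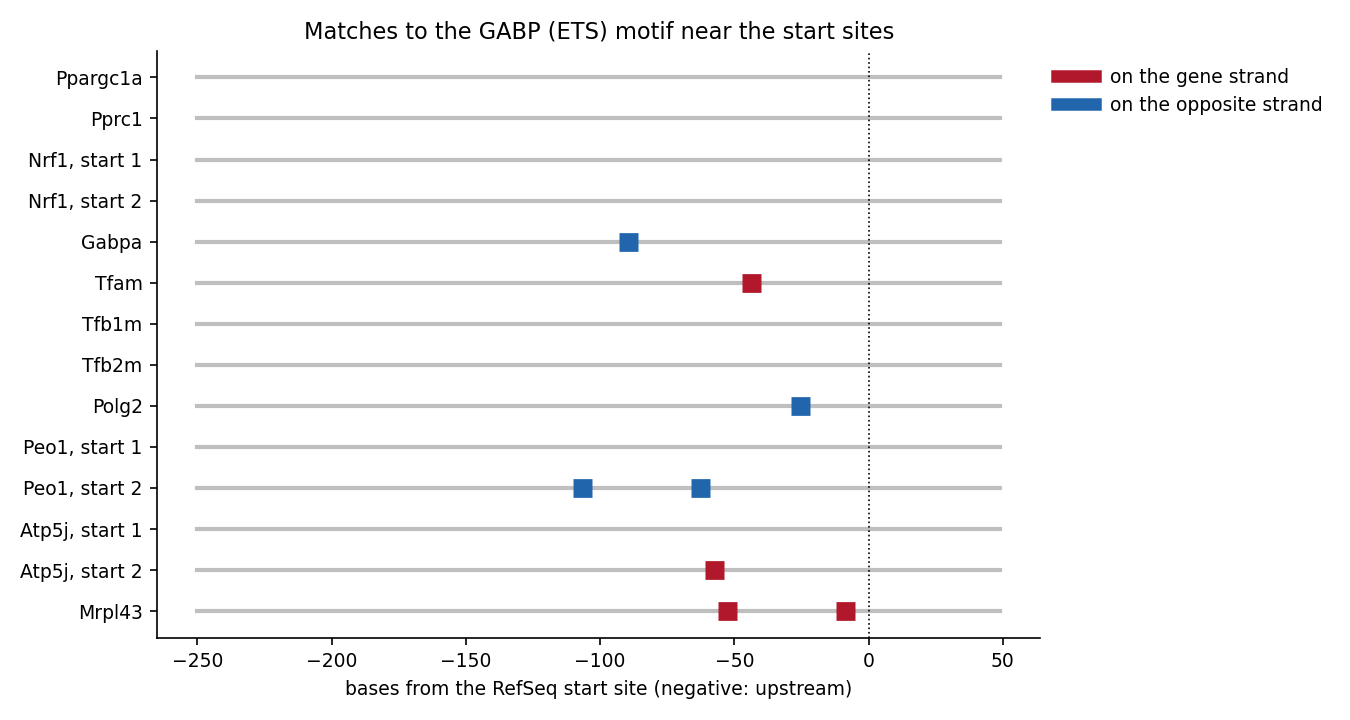
Position of each match to the ETS motif in bases from the RefSeq start (horizontal axis, negative values upstream) in the windows of the members and of 2 genes that start on the opposite strand, Atp5j and Mrpl43, coloured by strand. The matches of Gabpa, Tfam, Polg2 and Peo1 lie within 110 bases upstream of a RefSeq start, and 4 of the 11 member windows hold one.

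Some members share their start region with a gene on the opposite strand. Outermost GENCODE starts lay within 1000 bases for Pprc1 and Ldb1 (328 bases), Gabpa and Atp5j (700), Tfb2m and Cnst (103), and Peo1 and Mrpl43 (779). The RNA gene 1700102H20Rik, 43 bases from Tfb1m, was not analysed here. The ETS motif of Gabpa is the same 7 bases as one in the window of Atp5j, and both motifs of Peo1 are the same bases as those of Mrpl43, whose window reads them on the other strand. On the strand of Mrpl43 they read:
Mrpl43 far site: tcgcggtgactCCGGAAGcaaaactctcca
Mrpl43 near site: catgccacaaccccggaaCCGGAAGtcacc
These are chr19:45006480-45006509 and chr19:45006443-45006472 (minus), 56 and 12 bases before the start of Mrpl43, a subunit of the mitochondrial ribosome. Mrpl43 was lower at 4 h in the authors' deposited tables, at -0.57 (DESeq2 adjusted p 2.07e-09) beside -2.32 for Peo1. At 24 h Mrpl43 was not called by DESeq2, at -0.05 (adjusted p 0.603) beside -0.58 for Peo1, while edgeR called it lower (-0.46). At 3 d Mrpl43 was lower, at -0.28 (DESeq2 adjusted p 3.77e-05) beside -0.36 for Peo1. Atp5j, a subunit of ATP synthase, was higher at 4 h by DESeq2 in the authors' deposited table, at 0.37 (adjusted p 1.06e-08) beside 0.71 for Gabpa, with edgeR turning both to lower. At 24 h Atp5j was not called by DESeq2 (0.10, adjusted p 0.0882) and called lower by edgeR (-0.32), beside -0.37 for Gabpa by DESeq2. At 3 d Atp5j was -0.24 (DESeq2 adjusted p 3.14e-07) in the authors' deposited tables, beside -0.30 for Gabpa.

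The pairs Pprc1 with Ldb1 and Tfb2m with Cnst had unlike changes. Ldb1, which encodes a cofactor of LIM domain proteins, was lower at all 3 times by both tools in the authors' deposited tables, at -2.06, -0.70 and -0.33 by DESeq2, while Pprc1 was 0.96, 1.44 and 1.04. Cnst, which encodes consortin, was -2.28 and called lower at 4 h, 0.24 at 24 h, where DESeq2 called it higher and edgeR lower (-0.18), and -0.08 and not called by DESeq2 at 3 d in the authors' deposited tables. Exons on opposite strands overlapped over 12.6% of the exonic bases of Peo1 (with Mrpl43), 6.98% of Gabpa (Atp5j), 3.93% of Tfb1m (Tiam2), 3.03% of Polg2 (Milr1) and 2.82% of Pprc1 (Ldb1). The libraries were stranded but whether counting used strand is not stated in the labels or processing notes, so reads of these stretches may not have been told apart, and their part in the results was not tested. Milr1 was higher at each time by both tools in the authors' deposited tables, at 2.13, 2.45 and 0.47 by DESeq2, while Polg2 was 0.30, -0.32 and -0.55. Tiam2 was not called by DESeq2 at any time in the authors' deposited tables, with adjusted p of 0.996, 0.390 and 0.495, while edgeR called it lower at 4 h and 24 h.

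**Figure D4:**
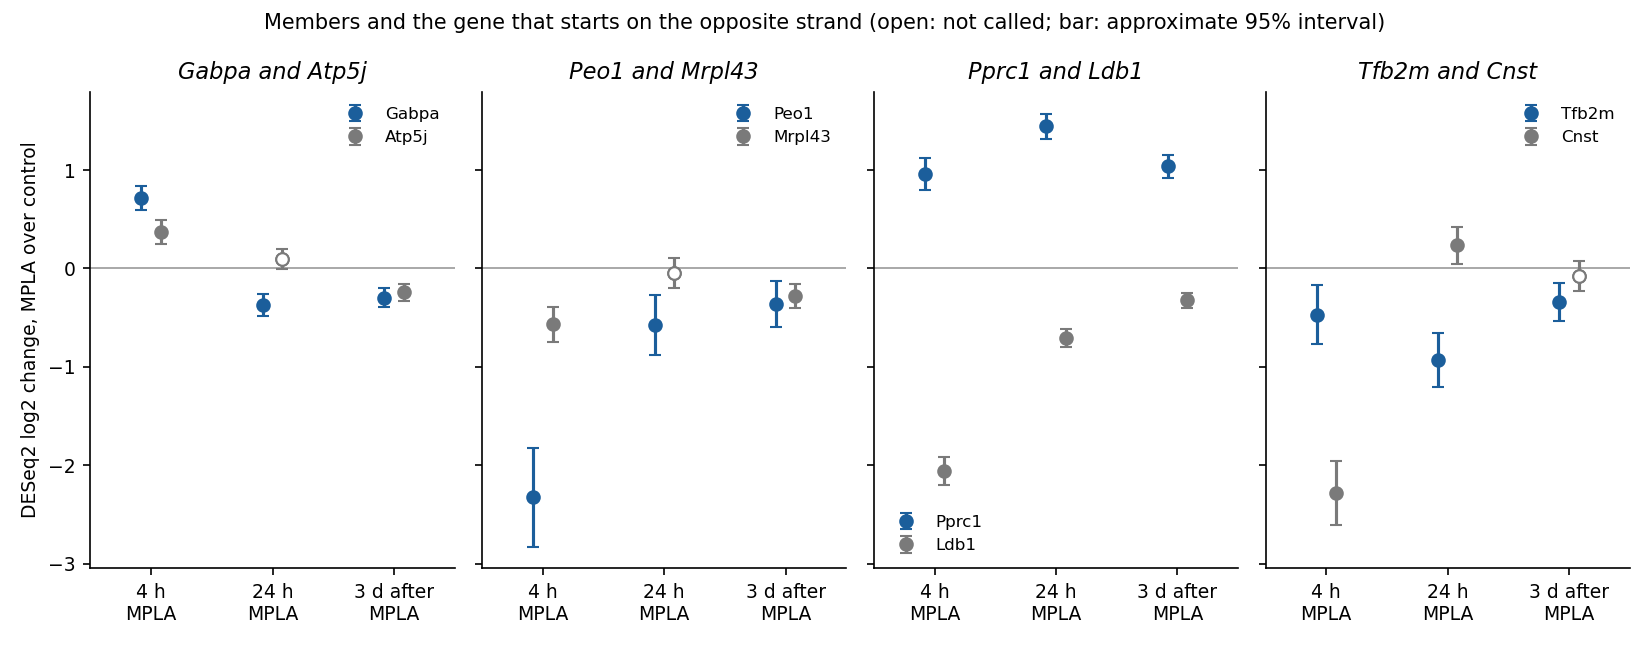
DESeq2 log2 change of MPLA-exposed over control macrophages (vertical axis) at 4 h, 24 h and 3 d after MPLA for 4 members (blue) and the gene that starts within 1000 bases on the other strand (grey), with approximate 95% intervals and open symbols for values not called. Pprc1 and Ldb1 lie on opposite sides of 0 at all 3 times, while Peo1 and Mrpl43 both lie below 0.

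Beyond the members, 30 genes that copy, repair, transcribe or process the mitochondrial genome or feed it nucleotides were compared. In the authors' deposited tables DESeq2 called 8 higher and 13 lower at 4 h, 14 higher and 5 lower at 24 h, and 14 higher and 8 lower at 3 d, with median changes of -0.20, 0.17 and 0.11 beside -0.04, -0.05 and -0.02 for all tested genes. The shares of all tested genes called by DESeq2 were 31.8% higher and 31.0% lower at 4 h, 32.4% and 32.2% at 24 h, and 29.5% and 25.8% at 3 d. By edgeR the authors' deposited counts were 4 higher and 24 lower at 4 h, 6 and 18 at 24 h, and 8 and 11 at 3 d. Over all genes edgeR called 13.5% of all genes higher and 50.1% lower at 4 h, 16.2% and 41.8% at 24 h, and 15.5% and 27.7% at 3 d. At 4 h the largest increases by DESeq2 in the authors' deposited table were those of Pnpt1 (3.22), a polynucleotide phosphorylase of the mitochondrion, Rnaseh1 (1.67), which removes RNA primers, and Tefm (1.60), an elongation factor of mitochondrial transcription. The largest decreases there were Dna2 (-3.25), a nuclease and helicase, Tk2 (-1.94), the mitochondrial thymidine kinase, and Mterf2 (-1.50), of the transcription termination factor family. At 24 h the highest values in the authors' deposited table were Slc25a33 (2.81), a pyrimidine nucleotide carrier, Pnpt1 (1.99) and Slirp (1.51), an RNA-binding protein that works with Lrpprc, and the lowest were Tk2 (-1.08), Dna2 (-0.77) and Slc25a36 (-0.73), another pyrimidine nucleotide carrier. At 3 d Slc25a33 (1.40), the topoisomerase Top1mt (0.67) and Pnpt1 (0.50) led the increases and Mterf2 (-1.17), Mterf1a (-0.78) and Tk2 (-0.37) the decreases in the authors' deposited table. Both tools called each of these genes in the same direction.

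Partners and regulators of the coactivators and factors formed a list of 34, with 32 listed at 4 h, 32 at 24 h and 34 at 3 d. Of these DESeq2 in the authors' deposited tables called 16 higher and 8 lower at 4 h, 14 and 11 at 24 h, and 13 and 10 at 3 d. Their medians were 0.26, 0.04 and 0.03 in the authors' deposited tables. For all tested genes the DESeq2 shares were 31.8% higher and 31.0% lower at 4 h, 32.4% and 32.2% at 24 h, and 29.5% and 25.8% at 3 d. With edgeR the counts in the authors' deposited tables were 8 higher and 23 lower at 4 h (all genes 13.5% and 50.1%), 8 and 21 at 24 h (16.2% and 41.8%), and 8 and 12 at 3 d (15.5% and 27.7%). The largest decreases at 4 h in the authors' deposited table were those of the nuclear receptors Rxra (-3.83), Pparg (-3.00) and Ppard (-2.45). Other nuclear receptors of the list did otherwise at 4 h. Esrra was 0.62 in the authors' deposited table, called higher by DESeq2 (adjusted p 3.20e-16) and lower by edgeR (-0.31). Thrb was -0.06 there, not called by DESeq2 (adjusted p 0.922) and called lower by edgeR (-0.99). Pparg was also lower at 24 h (-3.39) and 3 d (-1.01), as was the muscle and myeloid transcription factor Mef2c (-2.38 and -1.14), in the authors' deposited tables. Perm1, a regulator that acts with PGC-1 and estrogen-related receptors in muscle, was higher at each time in the authors' deposited tables, at 1.97, 2.75 and 0.99. Rnf34, a ubiquitin ligase that targets PGC-1alpha, was higher at 4 h (1.86) and 24 h (1.47) in the authors' deposited tables, and Esrra, the estrogen-related receptor alpha, at 24 h (0.83). Prkaa2, a catalytic subunit of AMP-activated kinase, was higher at 4 h (1.98), lower at 24 h (-1.48) and higher at 3 d (0.71) in the authors' deposited tables. At 3 d Mybbp1a (0.49), a repressor of PGC-1alpha, was the third highest and the mitochondrial deacetylase Sirt3 (-0.49) the third lowest of the list in the authors' deposited table. Apart from Esrra and Thrb at 4 h, which were added after their values were seen, edgeR made the same call for all of these genes. Ppara was listed at 0 after MPLA at all 3 times, and Esrrb and Esrrg were listed at 0 in controls at 3 d, in the authors' deposited tables.

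Known nuclear targets of NRF-1 and GABP numbered 23, all listed at each time. DESeq2 in the authors' deposited tables called 18 higher and 4 lower at 4 h, 15 higher and 2 lower at 24 h, and 8 higher and 10 lower at 3 d, with medians of 0.48, 0.32 and 0.00. Among all tested genes DESeq2 called 31.8% higher and 31.0% lower at 4 h, 32.4% and 32.2% at 24 h, and 29.5% and 25.8% at 3 d in the authors' deposited tables. The edgeR counts in the authors' deposited tables were 6 higher and 16 lower at 4 h (all genes 13.5% and 50.1%), 8 and 11 at 24 h (16.2% and 41.8%), and 6 and 11 at 3 d (15.5% and 27.7%), so which direction prevailed at 4 h and 24 h depended on the scaling. Cycs, which encodes cytochrome c, had the highest value of the list at each time in the authors' deposited tables, at 3.56, 3.15 and 1.38, and both tools called it higher. Also higher by both tools in the authors' deposited tables were Fmr1 (2.17) and the import receptor Tomm70a (2.00) at 4 h, Alas1 (1.71), the first enzyme of heme synthesis, and Timm23 (1.30) at 24 h, and Alas1 (0.77) and Tomm34 (0.49) at 3 d. Lower by both tools in the authors' deposited tables were the cytochrome oxidase assembly factor Surf1 (-0.78), Mrpl43 (-0.57) and the import receptor Tomm20 (-0.43) at 4 h, Tomm20 (-0.65) and the oxidase subunit Cox4i1 (-0.48) at 24 h, and Cox4i1 (-0.45), Cox6c (-0.35) and Mrpl43 (-0.28) at 3 d.

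The mitochondrial genome itself encodes 13 proteins, all of which had a row; those named here were chosen after their values were seen. At 4 h DESeq2 in the authors' deposited table called 7 higher, from mt-Nd6 (0.31) to mt-Co1 (0.54), and the other 6 were not called. The median by DESeq2 was 0.36 in the authors' deposited table, and 31.8% of all tested genes were called higher. With edgeR 9 were called lower there, against 50.1% of all genes. At 24 h the authors' deposited table had 9 lower by DESeq2, against 32.2% of all tested genes, and 12 by edgeR, against 41.8%. Among them was mt-Cytb at -1.12 (DESeq2 adjusted p 6.02e-213). The DESeq2 median at 24 h, over the 12 genes with an adjusted p, was -0.93. At 3 d the authors' deposited table had 9 lower by DESeq2 and 9 by edgeR, among them mt-Cytb at -1.28 (DESeq2 adjusted p 1.64e-188). The DESeq2 median at 3 d, over the 11 genes with an adjusted p, was -0.85. There baySeq called 6 lower, against 4.84% of all genes. All-gene shares called lower were 25.8% by DESeq2 and 27.7% by edgeR. In that table of the authors' deposited values mt-Co1 was 0.01 (DESeq2 adjusted p 0.867). At 24 h mt-Nd3 was listed at 0 after MPLA in the authors' deposited table.

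**Figure D5:**
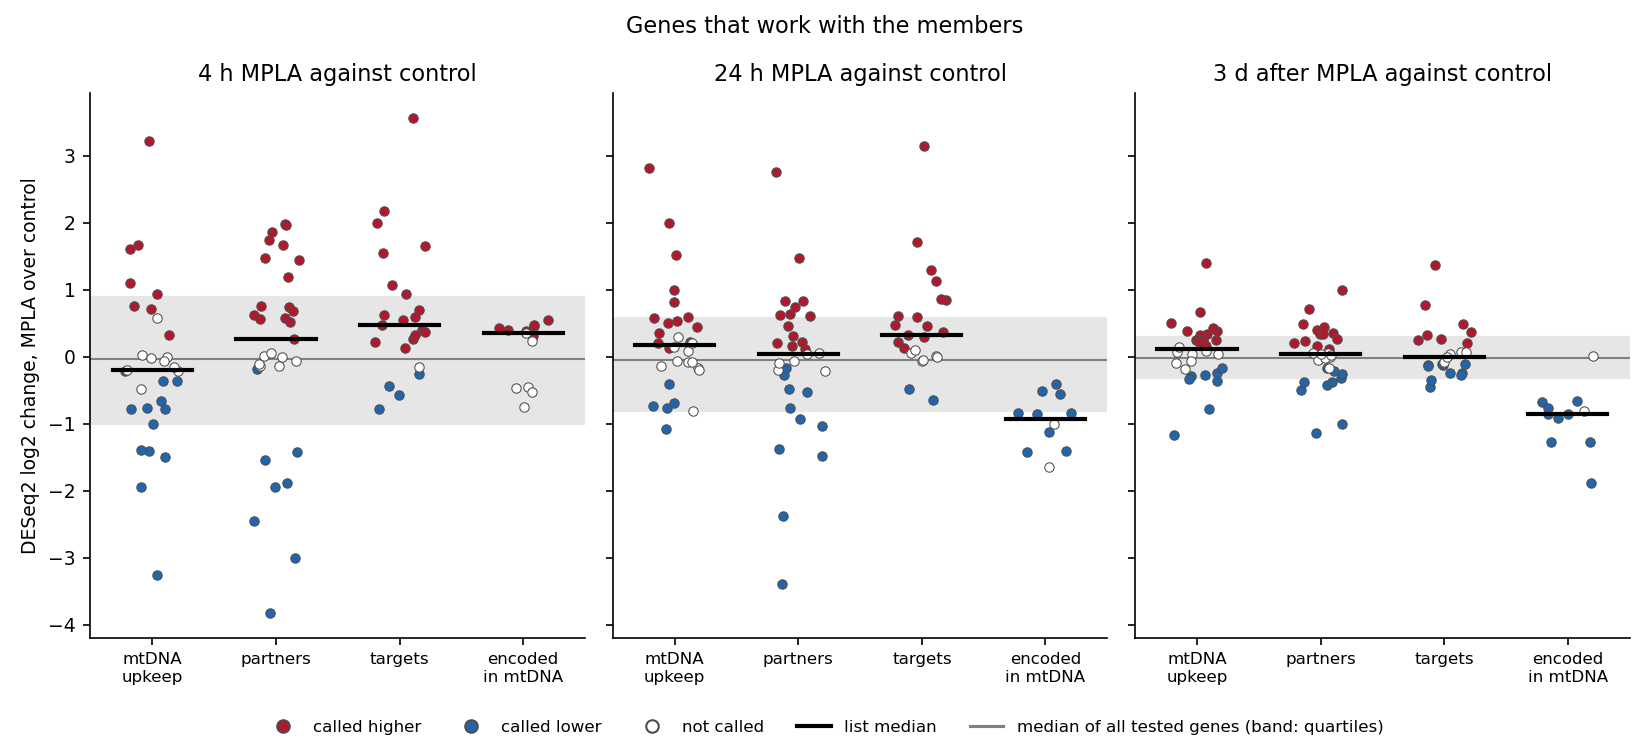
DESeq2 log2 change of MPLA-exposed over control macrophages (vertical axis) for each gene of 4 lists at 4 h, 24 h and 3 d after MPLA, namely 30 genes of mitochondrial DNA upkeep, 34 partners, 23 targets of the nuclear respiratory factors and the 13 proteins encoded in mitochondrial DNA, with black bars for list medians and a grey band for the quartiles of all tested genes. Genes listed at 0 in a group or without an adjusted p are not drawn. The targets have a median of 0.48 at 4 h and of 0.00 at 3 d, and the genes encoded in mitochondrial DNA of -0.93 at 24 h.

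Genes whose 3 DESeq2 changes lay nearest those of the members with the largest sums of absolute change were sought among 15038 genes tested at all 3 times, by Euclidean distance. Nearest to Ppargc1b in the authors' deposited tables were Adgrg7 (distance 0.178), Col19a1 (0.247), Cpeb4 (0.262), Gm10425 (0.281) and Fam49a (0.382). Nearest to Pprc1 were Alg3 (0.0809), Rap2b (0.135), Ncf4 (0.145), D330050G23Rik (0.148) and Sqstm1 (0.163), from the authors' deposited changes. For scale, Adgrg7 was 3.59, 1.15 and 0.94 at 4 h, 24 h and 3 d, and Alg3 was 1.01, 1.45 and 1.11, in the authors' deposited tables. The 4 h change of Adgrg7 had a DESeq2 adjusted p of 2.94e-04, against 4.61e-85 for Ppargc1b, so it was far less precise. The distances take no account of the errors of the changes. Likeness over 3 values that share their controls is a description and carries no test.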

How the data were processed

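RNA-seq libraries of polyadenylated RNA were made with a stranded kit, per the labels' protocols. Per the submitters' processing notes, the tools were TopHat2, bcl2fastq, DESeq, DESeq2, edgeR and HTSeq (no version or order named) and the build was mm10; counting settings, strand use and annotation are not given in the sources used here. Per the file headers, the authors deposited for each gene a log2 fold change, p-value and adjusted p-value from DESeq2 and from edgeR. They also deposited a log2 ratio of the groups before scaling and, from baySeq, an adjusted likelihood. That baySeq value was read here as an error rate, which the header does not state. The 3 tables, each an MPLA group against the same controls, were normalized separately and hold no value per library, so nothing was refitted, no error of replicates can be given, and times were not tested against each other. Each deposited log2 value was control over MPLA, a direction settled from the order of the groups and from genes that lipid A induces.

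Symbols were matched to gene IDs, and tables were joined by gene ID. This used Python 3.11.15, numpy 2.4.6, pandas 2.3.3 and scipy 1.17.1. The steps that adjust p and compute the SE back from p were run on simulated normal data. Such data cannot show whether the deposited p came from a Wald test. Figures were drawn with matplotlib 3.10.9. An adjusted p-value deposited as NA was kept as not tested. Positions came from GENCODE M21, which held 99.4% of the gene IDs, and promoters from RefSeq. The text names all members and, of each list and time, the 3 called genes with the largest change in each direction, genes on the opposite strand near a member's start or over its exons, a gene sharing transcript sequence, and the 5 genes of most like pattern for 2 members. Genes listed at 0 in a group were named apart. Gabpb1, Gabpb2, Polg, Esrra and Thrb at 4 h, and the named genes of the mitochondrial genome were chosen after their values were seen. The members and lists were chosen with earlier results of these data known. Alternatives were the edgeR columns of the authors' deposited tables, those centred on all tested genes, p adjusted without the filter on low values, baySeq, agreement of all 3 tools, and a minimum of 2-fold.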

Additional observations from a re-analysis of the deposited data

How the results depend on the processing

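No paired analysis was possible because the deposited tables hold no values per library, and for the same reason no library could be left out. Across the 6 alternatives, 79 counts of calls stayed within 1.5 times the value given above and 65 did not, while 6 member changes turned direction, all under edgeR: Nrf1 (-0.21), Gabpa (-0.22), Tfam (-0.41) and Polg2 (-0.63) at 4 h, and Nrf1 (-0.28) and Tfam (-0.059) at 24 h. The cause was not tested beyond the scaling, by which edgeR's median change lay lower than that of DESeq2. Of the other member results under the alternatives, 123 kept their status of called or not called, 35 lost a call and 16 gained one. Depth and expression level are unknown, so precision per gene cannot be judged beyond the approximate errors.

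The counts listed from here on are those that did not stay within 1.5 times, and an alternative not named for a count stayed within it. For example, members called higher at 4 h stayed at 5 by centred edgeR (26.9% of all genes), by p adjusted without the filter (25.1%) and by baySeq (23.3%). Members called higher at 4 h numbered 1 by edgeR, 1 by all 3 tools (16.6% of all genes) and 1 at 2-fold (18.1%). Those called lower numbered 8 by edgeR, 4 by centred edgeR (36.7%) and 1 at 2-fold (18.5%). Here and below, centred edgeR keeps the p of the uncentred change, so only the direction of a call is centred. Members called lower at 24 h were 7 by edgeR and 0 at 2-fold (16.4%), and at 3 d 0 by baySeq (4.84%), 0 by all 3 tools (7.19%) and 0 at 2-fold (5.20%).

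For mitochondrial DNA upkeep, genes higher at 4 h were 4 by edgeR, 4 by all 3 tools and 4 at 2-fold, and genes lower 24 by edgeR and 6 at 2-fold. At 24 h 6 were higher by edgeR, 6 by all 3 tools and 3 at 2-fold, and 18 lower by edgeR, 12 by centred edgeR, 11 by baySeq and 1 at 2-fold. At 3 d 8 were higher by edgeR, 8 by centred edgeR, 6 by baySeq, 6 by all 3 tools and 1 at 2-fold, and 1 lower by baySeq, 1 by all 3 tools and 1 at 2-fold.

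For the partners, genes higher at 4 h were 8 by edgeR, 8 by all 3 tools and 8 at 2-fold, and genes lower 23 by edgeR. At 24 h 8 were higher by edgeR, 8 by all 3 tools and 2 at 2-fold, and 21 lower by edgeR and 5 at 2-fold. At 3 d 8 were higher by edgeR, 8 by centred edgeR, 7 by baySeq, 7 by all 3 tools and 0 at 2-fold, and 2 lower by baySeq, 2 by all 3 tools and 2 at 2-fold.

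For the targets, genes higher at 4 h were 6 by edgeR, 6 by all 3 tools and 6 at 2-fold, and genes lower 16 by edgeR and 0 at 2-fold. At 24 h 8 were higher by edgeR, 8 by all 3 tools and 4 at 2-fold, and 11 lower by edgeR, 4 by baySeq and 0 at 2-fold. At 3 d 5 were higher by baySeq, 5 by all 3 tools and 1 at 2-fold, and 0 lower by baySeq, 0 by all 3 tools and 0 at 2-fold.

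Shares of all genes called higher and lower were, in that order, 16.6% and 30.9% by all 3 tools, 18.1% and 18.5% at 2-fold, 26.9% and 36.7% by centred edgeR and 23.3% and 30.5% by baySeq at 4 h. At 24 h they were 20.8% and 32% by all 3 tools, 12.8% and 16.4% at 2-fold, 24.6% and 33.4% by centred edgeR and 19.6% and 31.3% by baySeq. At 3 d they were 17.4% and 7.19% by all 3 tools, 6.38% and 5.20% at 2-fold, 16.9% and 26.3% by centred edgeR and 11.6% and 4.84% by baySeq. By edgeR they were 13.5% and 50.1% at 4 h, 16.2% and 41.8% at 24 h, and 15.5% and 27.7% at 3 d.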
